A study of Mus musculus with 16 samples.

Results

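Nucleotide excision repair removes bulky DNA lesions, such as those left by ultraviolet light, by cutting out a short stretch of the damaged strand and filling the gap. In global genome repair the lesion is found by XPC and by the DDB1-DDB2 complex, whereas in transcription-coupled repair it is found by a stalled RNA polymerase with the help of ERCC6, also known as CSB. Both routes then bring in the TFIIH complex, whose helicases ERCC2 (XPD) and ERCC3 (XPB) open the helix, then XPA, which verifies the damage, and the nucleases ERCC4 (XPF), held by ERCC1, and ERCC5 (XPG), which cut on either side of it. DDB1 is also the adaptor of the CUL4 ubiquitin ligases, and TFIIH is also a general transcription factor, so several of these genes have roles outside repair.

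The genes described are the 10 that encode these factors, *Xpc*, *Ddb1*, *Ddb2*, *Xpa*, *Ercc1*, *Ercc2*, *Ercc3*, *Ercc4*, *Ercc5* and *Ercc6*. They were chosen by name for their roles in the pathway, with results of the comparisons below already known, so that their values in both comparisons are a description and no p-value is given for them. All 10 were found by symbol among the 15386 genes of the RNA-seq table and among the 13490 genes of the m6A table, and all 10 passed the filter on low counts in both.

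Sorted mouse bone marrow gave 3 RNA-seq libraries of control CFU-E and 3 that the labels call *Mettl3*-deficient with low Kit, named Kit-lo libraries from here on. CFU-E are erythroid progenitors, and Kit-lo marks those with very little of the receptor Kit on their surface. *Mettl3* encodes the catalytic subunit of the enzyme that writes N6-methyladenosine (m6A) on mRNA. The m6A libraries came from control CFU-E cells alone, with 2 immunoprecipitated by an antibody against m6A (IP) and 2 of the RNA before capture (input). The mice were adults of both sexes on a C57BL/6 background, and the deficient animals were Mettl3 fl/fl EpoR Cre/-, in which the Cre gene is driven by the erythropoietin receptor locus in erythroid cells and in macrophages of erythroblastic islands. The labels call the other animals controls without a genotype, and they do not say whether the replicates were separate animals, so the errors below measure the spread between these libraries. Because the groups differed both in genotype and in the Kit gate, the effects of genotype and gate cannot be told apart.

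The RNA-seq libraries held 17429262 to 21329242 counts and the m6A libraries 19421059 to 37142742. *Mettl3* was at 115, 123 and 130 CPM (counts scaled to a common library total) in control CFU-E and at 117, 127 and 108 CPM in the Kit-lo libraries. The groups overlapped in the gene the labels name as deleted. Counts summed over a gene cannot show whether an exon is missing, so this neither checks the deletion nor goes against it. The paper reports that *Mettl3* mRNA, measured by qRT-PCR, and its protein were absent from erythroid cells of the deficient mice. Every direction given below rests on the labels of the libraries. *Kit* was at 598 ± 47.1 CPM in the control and 55.2 ± 12.4 CPM in the Kit-lo libraries (SD, n = 3 each). Of 9 erythroid markers 6 were higher in the Kit-lo libraries, and their summed level was 2530 to 2657 CPM in the control and 4538 to 5513 CPM in the Kit-lo libraries. The early progenitor markers summed to 32.9 to 37.3 CPM in the control and 2.23 to 3.11 CPM in the Kit-lo libraries. That sum was mostly *Gata2*, at means of 34.7 and 2.27 CPM, the 1 early progenitor marker tested. The 8 macrophage markers were at 22.4 to 27.5 CPM and 12.6 to 16.0 CPM in control and Kit-lo libraries. The granulocyte markers were at 24.7 to 37.3 CPM and 13.3 to 21.3 CPM. Of the 3 granulocyte markers tested, 2 had a log2 fold change below 0 and 1, *Prtn3*, was above 0. *Gata2* and *Prtn3* were named after their values were seen. B-cell markers summed to at most 1.36 CPM and T-cell markers to at most 2.92 CPM in any library. The megakaryocyte markers summed to 3.21 to 4.92 CPM in the control and 3.96 to 12.2 CPM in the Kit-lo libraries, and 1 of the 2 found was called higher, *Itga2b*, named after its values were seen. These shifts in markers went with every RNA-seq comparison below, and their part in the repair genes was not tested. In such bulk samples fewer cells of a type and less RNA per cell cannot be told apart.

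To show what lies before the starts of these genes, the RefSeq table of GRCm38.p6 was searched, in which 7 of the 10 genes were looked up (*Ddb1*, *Ercc1*, *Ercc2*, *Ercc4*, *Ercc5*, *Ercc6* and *Xpa*). The 250 bases before the start were free of annotated exons in 3 of them. Because they were free of exons, these 3 are printed here 5′ to 3′ on the strand of the gene. *Ercc5* and *Ercc6* are 2 of the genes whose Kit-lo libraries lay above the control libraries. *Xpa* was the gene called lower in the IP. Capitals mark 4 motifs on either strand. These are the GC box, spelled GGGCGG, and the CCAAT box. The others are the core of sites for GATA factors, which is GATAA, and the E-box, with the letters CACGTG. The *Ercc5* window is chr1:44147494-44147743 on the plus strand, the *Ercc6* window chr14:32513271-32513520 on the plus strand and the *Xpa* window chr4:46196312-46196561 on the minus strand.
Ercc5: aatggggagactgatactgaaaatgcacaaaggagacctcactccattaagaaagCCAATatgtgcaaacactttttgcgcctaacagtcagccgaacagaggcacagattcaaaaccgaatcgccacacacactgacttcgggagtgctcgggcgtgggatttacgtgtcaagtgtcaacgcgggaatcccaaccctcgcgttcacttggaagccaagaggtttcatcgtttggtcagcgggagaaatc
Ercc6: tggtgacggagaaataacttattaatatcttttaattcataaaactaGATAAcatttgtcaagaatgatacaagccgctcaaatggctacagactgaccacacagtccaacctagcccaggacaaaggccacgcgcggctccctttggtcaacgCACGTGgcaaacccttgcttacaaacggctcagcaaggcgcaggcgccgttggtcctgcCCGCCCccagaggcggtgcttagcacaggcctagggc
Xpa: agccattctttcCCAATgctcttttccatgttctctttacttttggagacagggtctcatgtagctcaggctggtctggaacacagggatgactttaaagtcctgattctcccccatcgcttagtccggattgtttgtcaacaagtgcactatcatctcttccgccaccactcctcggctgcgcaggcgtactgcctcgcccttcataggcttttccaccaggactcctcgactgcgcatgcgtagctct

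Across the 7 windows, GGGCGG was found in 4, those of *Ddb1*, *Ercc1*, *Ercc2* and *Ercc6*, and in 32.7% of all 32851 promoters of the table. All 250 bases of the *Ddb1* window and of the *Ercc1* window lay in annotated exons. In the *Ercc2* window 7 bases did, and in the *Ercc4* window 52. The letters CCAAT were found in 4, those of *Ercc2*, *Ercc4*, *Ercc5* and *Xpa*, and in 33.8% of all. GATAA was found before *Ercc6* alone of the 7 and in 22.6% of all promoters, CACGTG likewise before *Ercc6* and in 6.02% of all, and TGACGTCA, the cyclic AMP response element, before 0 of the 7 and in 1.55% of all. A match is a description of the letters and not a binding site.

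In the RNA-seq of control CFU-E the transcripts of these genes differed widely in level, with *Ddb1* far above the rest. Per kilobase of the principal transcript, a scale on which genes can be compared in these full-length libraries, *Ddb1* was at 324 ± 18.8 CPM per kilobase (SD, n = 3), above 98.2% of the genes tested. *Ercc4* followed at 16.0 ± 1.06 and *Ercc2* at 12.5 ± 0.886 CPM per kilobase. The next 5 genes, from *Ercc1* at 9.75 ± 0.907 through *Xpc* at 8.88 ± 0.963, *Ddb2* at 8.88 ± 1.03 and *Ercc5* at 8.29 ± 1.25 to *Ercc3* at 7.45 ± 0.743 CPM per kilobase, each overlapped the neighbour in this order, so their order is not resolved. *Ercc6* was at 4.21 ± 0.272 CPM per kilobase, and *Xpa* was lowest at 1.23 ± 0.290, above 23.1% of the genes tested. This order is that of the RNA-seq alone. In the m6A input, where CPM was not scaled by length, *Ercc1* had the highest mean of the 10 at 99.3 CPM. *Ddb1* followed at 29.8 CPM and *Xpa* at 16.8 CPM.

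To see how these genes differed between the groups, the RNA-seq counts were compared by edgeR's quasi-likelihood test over the 11979 genes that passed the filter. The call required a 1.5-fold difference or more, together with a p-value under 0.05 after Benjamini-Hochberg adjustment. *Xpc* and *Ddb1*, both of the recognition step, were called lower in the Kit-lo libraries, and 0 of the 10 were called higher. Of all genes tested, 9.83% were called lower and 12.1% higher by this rule. DESeq2 likewise called 2 of the 10 lower (10.2% of all genes) and 0 higher (12.4% of all genes). At an unadjusted p-value under 0.05, 3 of the 10 were higher (22.0% of all genes) and 3 lower (21.5% of all genes). At any fold, the adjusted p-value was under 0.05 for 2 of the 10 with a lower level (16.9% of all genes) and for 2 with a higher level (17.6% of all genes), the latter being *Ercc4* and *Ercc5*. The 3 Kit-lo libraries lay above the 3 control libraries in 4 of the 10 (23.5% of all genes) and below them in 3 (24.0% of all genes). The median log2 fold change of the 10 genes was 0.15, beside 0.0080 over all genes tested, and it ranged from -0.11 without Kit-lo replicate 2 to 0.24 without Kit-lo replicate 1.

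**Figure D1:**
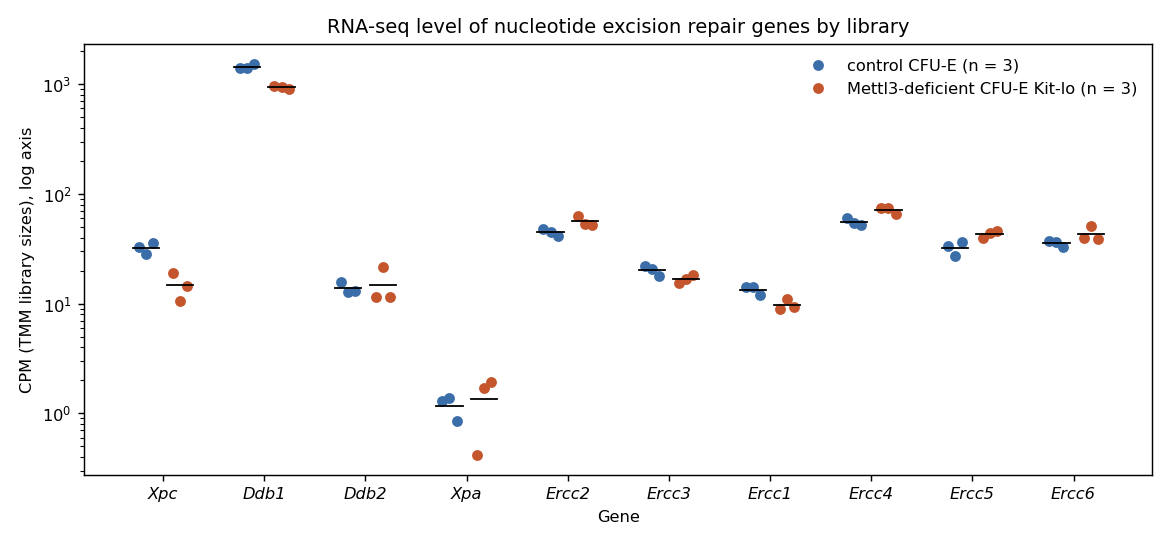
Level of the 10 repair genes in each RNA-seq library, in CPM on a log axis, with control CFU-E in blue and the Kit-lo libraries in orange. Points are libraries and black lines are means (n = 3 each). The groups do not overlap in Xpc, Ddb1 and Ercc1, which are lower in the Kit-lo libraries, nor in Ercc2, Ercc4, Ercc5 and Ercc6, which are higher there.

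Among the genes that recognize damage, *Xpc*, which binds the strand opposite a lesion and starts global genome repair, had the largest difference of the 10. Its level was 32.9, 28.5 and 35.4 CPM in the control libraries and 19.1, 10.5 and 14.5 CPM in the Kit-lo libraries. Every Kit-lo library was below every control library, and the Kit-lo libraries differed more among themselves. The means were 32.3 ± 3.50 and 14.7 ± 4.27 CPM (SD, n = 3 each), for a log2 fold change of -1.14 (standard error, SE, of 0.21). *Xpc* was called lower in each of the 6 fits that left out 1 library, in which the log2 fold change ran from -1.37 without Kit-lo replicate 1 to -0.92 without Kit-lo replicate 2.

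*Ddb1* encodes the large subunit of the UV-damage binding complex and the CUL4 adaptor. It was at 1402, 1389 and 1540.4 CPM in control CFU-E and at 959, 945 and 905 CPM in the Kit-lo libraries. The groups were far apart in relation to the spread within them, and *Ddb1* had the smallest standard error of the 10. On the log2 scale the change was -0.62 (SE 0.072), close to the fold threshold. It fell short of that threshold without control replicate 3, at -0.58, and with library sizes alone as normalization, at -0.57. Of its exonic bases 5.12% overlap *Tkfc* on the opposite strand, and whether the counting used strand is not given in the sources used here.

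*Ddb2* encodes the small subunit, which contacts the lesion itself. It was at 15.7, 12.8 and 13.1 CPM in control CFU-E and at 11.6, 21.7 and 11.5 CPM in the Kit-lo libraries. A single library, Kit-lo replicate 2, was high, and the other two were below the control libraries. This gave a log2 fold change of 0.11 (SE 0.26), and without Kit-lo replicate 2 it was -0.24. Of the exonic bases of *Ddb2*, 23.8% overlap *Acp2* on the opposite strand. In CPM per kilobase, *Ddb1* exceeded *Ddb2* by 36.8 ± 5.08 times in the control and 23.9 ± 7.53 times in the Kit-lo libraries (SD, n = 3 each), and the ratios of all 3 Kit-lo libraries were below those of the control libraries.

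*Xpa*, which checks that the opened strand is damaged and arranges the nucleases, was the scarcest of the 10 in the RNA-seq. It had 27, 24 and 15 counts in the control libraries and 8, 35 and 37 counts in the Kit-lo libraries. The levels were 1.29, 1.37 and 0.859 CPM against 0.416, 1.70 and 1.93 CPM, with overlapping groups. At this depth the log2 fold change of 0.20 had a standard error of 0.60, and it was -0.15 without Kit-lo replicate 3, so a difference was not detectable.

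The helicases of TFIIH had log2 fold changes of opposite sign. *Ercc2* encodes the helicase that unwinds DNA around the lesion, and it was at 47.6, 45.0 and 41.3 CPM in control CFU-E and at 63.4, 52.9 and 52.1 CPM in the Kit-lo libraries. All Kit-lo libraries were above the control libraries, with a log2 fold change of 0.33 (SE 0.12), and *Ercc2* was not called. Its counts are uncertain, since 42.4% of its exonic bases overlap *Klc3* and *Gm26852* on the opposite strand. *Ercc3* encodes the translocase of TFIIH that opens promoters as well as lesions. It was at 22.03, 20.5 and 18.0 CPM in control CFU-E and at 15.3, 16.6 and 18.1 CPM in the Kit-lo libraries. The groups overlapped by a single library on each side, with a log2 fold change of -0.28 (SE 0.16). In CPM per kilobase, the ratio of *Ercc2* to *Ercc3* was 1.68 ± 0.0505 in the control and 2.57 ± 0.497 in the Kit-lo libraries (SD, n = 3 each), without overlap.

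The genes of the nucleases likewise had values on both sides of 0. *Ercc1* encodes the partner without catalytic activity that anchors ERCC4 to DNA. It was at 14.1, 14.1 and 11.97 CPM in control CFU-E and at 8.88, 10.9 and 9.34 CPM in the Kit-lo libraries, all of them below the control libraries. On the log2 scale the change was -0.46 (SE 0.19), and *Ercc1* was not called. *Ercc4* encodes the nuclease that cuts on the 5′ side of the lesion. It was at 59.8, 54.8 and 52.6 CPM in control CFU-E and at 73.6, 74.9 and 65.1 CPM in the Kit-lo libraries, all of them above the control libraries. This gave a log2 fold change of 0.35 (SE 0.11), under the fold threshold. The proteins form a heterodimer, and in CPM per kilobase the ratio of *Ercc4* to *Ercc1* was 1.65 ± 0.104 in the control and 2.91 ± 0.313 in the Kit-lo libraries (SD, n = 3 each), without overlap.

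*Ercc5* encodes the nuclease that cuts on the 3′ side. It was at 33.4, 27.1 and 36.6 CPM in control CFU-E and at 39.8, 44.3 and 45.7 CPM in the Kit-lo libraries, again without overlap, and the log2 fold change was 0.42 (SE 0.14). The adjusted p-value stayed under 0.05 in only 2 of the 6 fits that left out 1 library for *Ercc4* and likewise in 2 of 6 for *Ercc5*. *Ercc6*, the ATPase that senses a stalled polymerase, was at 36.9, 36.6 and 32.8 CPM in control CFU-E and at 39.4, 50.4 and 38.9 CPM in the Kit-lo libraries. The groups did not overlap, with a log2 fold change of 0.28 (SE 0.14), and *Ercc6* was not called.

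**Figure D2:**
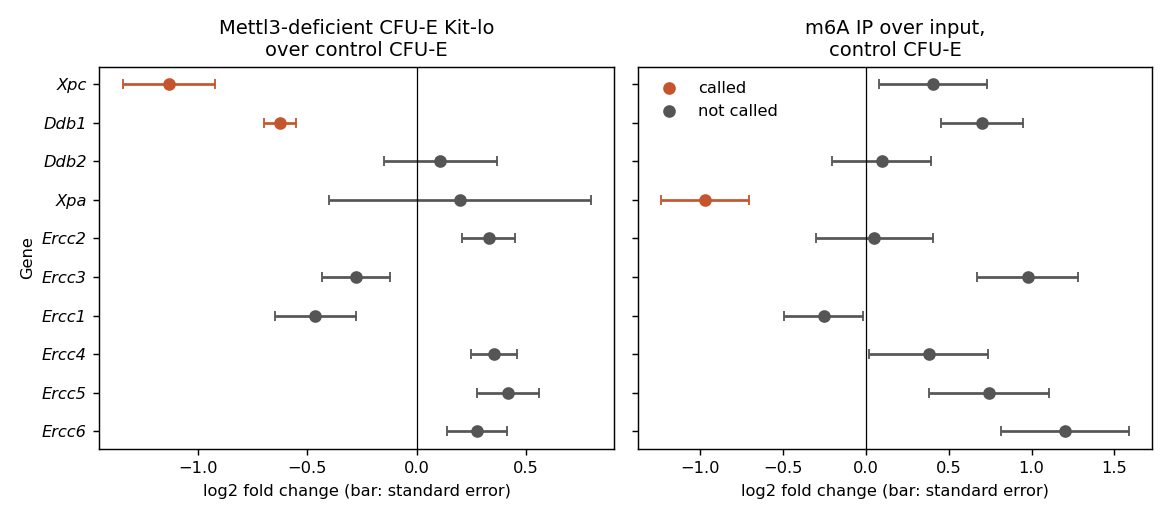
Log2 fold change of each repair gene, with the standard error as a bar, for Mettl3-deficient CFU-E Kit-lo over control CFU-E (left, n = 3 and 3) and for m6A IP over input in control CFU-E (right, n = 2 and 2). Called genes are orange. In the left panel Xpc at -1.14 and Ddb1 at -0.62 are called lower, and in the right panel Xpa at -0.97 is called lower.

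The other genes of the pathway, 41 in all, were taken from a list by step and included the partners of the 10. By the same rule 1 of the 41 was called higher (12.1% of all genes) and 2 were called lower (9.83% of all genes). At any fold the adjusted p-value was under 0.05 for 6 with a higher and 10 with a lower level. Over all genes it was so in 17.6% and 16.9%. The median log2 fold change of the 41 was -0.00025. Among the 7 partners in recognition, the log2 fold change was below 0 in 5 (5916 of all 11979 genes tested). These include *Usp7*, named after its values were seen, at -0.00025 and with a mean of 86.7 CPM in both groups. Of the 7, 1 was called lower. This was *Cul4b*, a scaffold of the ligases that DDB1 serves, which fell from 24.0 ± 2.92 to 15.5 ± 1.51 CPM (SD, n = 3 each), and had a log2 fold change of -0.63 ± 0.16 (SE, from edgeR with Benjamini-Hochberg adjustment, adjusted p = 0.012). The call was lost without control replicate 2, control replicate 3 or Kit-lo replicate 2. Its paralog *Cul4a* was at 322 ± 11.1 and 245 ± 28.6 CPM (SD, n = 3 each), and had a log2 fold change of -0.39, under the fold threshold (edgeR, adjusted p = 0.0086). The ratio of *Ddb1* to *Cul4a* per kilobase was 3.75 ± 0.278 in the control and 3.22 ± 0.373 in the Kit-lo libraries (SD, n = 3 each), with overlap between the groups. *Rad23b*, which stabilizes XPC, had a log2 fold change of -0.49 (edgeR, adjusted p = 0.028) and *Cetn2*, the centrin of the complex, one of -0.25 (edgeR, adjusted p = 0.096).

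Of the 8 other genes of TFIIH, 6 had a log2 fold change below 0 (5916 of all 11979 genes tested). *Mnat1*, the assembly factor of the kinase module, was called lower. Its level was 26.4, 27.1 and 28.4 CPM in the control libraries and 19.8, 12.9 and 14.0 CPM in the Kit-lo libraries, with a log2 fold change of -0.81 ± 0.18 (SE, from edgeR with Benjamini-Hochberg adjustment, adjusted p = 0.0062). *Mnat1* remained called whichever library was left out. Among the 5 other genes of transcription-coupled repair 0 were called, and *Ercc8* (CSA), the substrate receptor that works with ERCC6, had a log2 fold change of -0.14 (edgeR, adjusted p = 0.55). At any fold, the adjusted p-value was under 0.05 for *Elof1*, with a log2 fold change of 0.51, and for *Hmgn1*, with one of -0.27, both named after their values were seen, and at an unadjusted p-value under 0.05 the count was likewise 1 higher and 1 lower.

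The 21 genes that fill and seal the gap also serve replication. They had log2 fold changes above 0 in 14 (50.6% of all genes) and a median of 0.12. At any fold the adjusted p-value was under 0.05 for 5 with a higher level (17.6% of all genes). It was so for 4 with a lower level (16.9% of all genes). The gene called higher was *Polk*, a translesion polymerase that also takes part in repair synthesis. Its level was 8.28, 10.1 and 8.87 CPM in the control libraries and 18.6, 19.2 and 10.6 CPM in the Kit-lo libraries, of which replicate 3 was close to the control libraries. Its log2 fold change came to 0.83 ± 0.24 (SE, from edgeR with Benjamini-Hochberg adjustment, adjusted p = 0.024), and the call was lost when control replicate 1 or 3 or Kit-lo replicate 1 or 2 was left out.

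**Figure D3:**
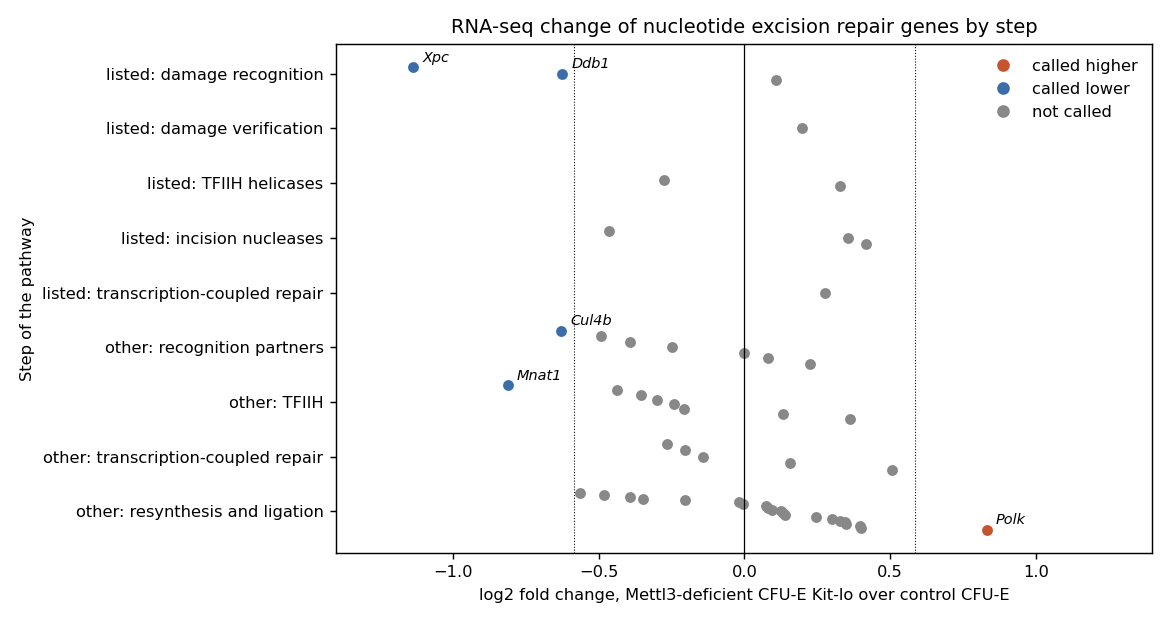
Log2 fold change in the RNA-seq comparison (horizontal axis) of the 10 listed and 41 other genes of nucleotide excision repair, grouped by step (vertical axis). Each point is a gene, the dotted lines mark a fold of 1.5, and the called genes are named, with Xpc, Ddb1, Cul4b and Mnat1 lower and Polk higher.

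For comparison, 36 genes of the other excision and joining pathways were summarized in the same fit. In it 12.1% of all genes were called higher and 9.83% lower. In base excision repair 1 of 18 genes was called higher, *Apex2* at a log2 fold change of 1.07, and 1 was called lower, *Nthl1* at -0.63 (edgeR, adjusted p = 0.0014 and 0.026), with a median of -0.12. Of 8 mismatch repair genes 1 was called higher, the exonuclease gene *Exo1* at 0.85 (edgeR, adjusted p = 9.2e-05), with a median of 0.0014. Of 10 genes of non-homologous end joining 1 was called lower, *Xrcc5*, which encodes Ku80, at -0.76 (edgeR, adjusted p = 0.00025), with a median of -0.095. The calls of *Apex2*, *Exo1* and *Xrcc5* held whichever library was left out, and that of *Nthl1* held only without Kit-lo replicate 3. No difference between the pathways was tested.

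To see which of these transcripts were captured by the m6A antibody in control CFU-E cells, IP was compared with input over 11447 genes by the same edgeR test, and a gene was called at an adjusted p-value under 0.05 on either side of 0. By edgeR 0 of the 10 repair genes were called higher in IP (7.90% of all genes tested were) and 1, *Xpa*, was called lower (7.86% of all genes). At an unadjusted p-value under 0.05, 3 of the 10 were higher (17.2% of all genes) and 1 was lower (14.8% of all genes). DESeq2 called 1 higher (8.94% of all genes) and 1 lower (10.4% of all genes). Over all genes 904 were called higher and 900 lower, a split that moved to 934 and 608 with library sizes alone and to 1451 and 754 with upper-quartile normalization, which shifted the median of all genes to 0.21 and 0.18. The log2 fold change was above 0 in 8 of the 10 (53.2% of all genes), with a median of 0.39 beside 0.056 over all genes tested. Both IP libraries lay above both input libraries in 5 of the 10 (32.2% of all genes) and below them in 1 (28.7% of all genes). These libraries count tags near the 3′ end of transcripts, so their CPM values were not scaled by transcript length. Below they are compared between libraries.

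**Figure D4:**
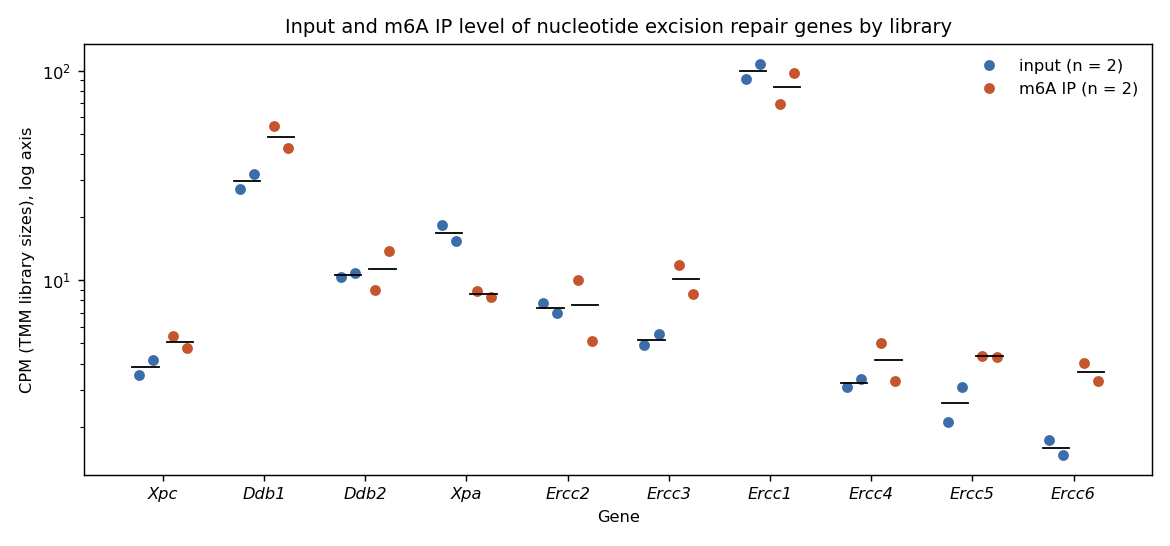
Level of the 10 repair genes in each m6A library of control CFU-E, in CPM on a log axis, with input in blue and IP in orange. Points are libraries and black lines are means (n = 2 each). Both IP libraries are above both input libraries in Xpc, Ddb1, Ercc3, Ercc5 and Ercc6 and below them in Xpa.

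The largest value was that of *Ercc6*, at 1.72 and 1.46 CPM in the input and 4.004 and 3.32 CPM in the IP libraries, a log2 fold change of 1.20 (SE 0.39). *Ercc3* was next, at 4.89 and 5.51 CPM in the input and 11.8 and 8.59 CPM in the IP libraries, a log2 fold change of 0.98 (SE 0.30). In both genes the IP libraries were above the input libraries, and both were called higher in 4 of the alternative analyses, with upper-quartile normalization, with a stricter filter on low counts, with the replicate number as a block and without IP replicate 2. *Ercc3* was also called with DESeq2. Upper-quartile normalization and the block also raised the number called higher over all genes. *Ddb1* was at 27.3 and 32.2 CPM in the input and 54.2 and 42.5 CPM in the IP libraries, a log2 fold change of 0.70 (SE 0.25). *Ercc5* was at 2.12 and 3.09 CPM in the input and 4.34 and 4.32 CPM in the IP libraries, a log2 fold change of 0.74 (SE 0.36). These genes, too, had no overlap between IP and input, and *Ddb1* was called with upper-quartile normalization and with the replicate block while *Ercc5* was called in no alternative.

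*Xpc*, the gene with the largest difference in the RNA-seq comparison, was at 3.53 and 4.16 CPM in the input and 5.42 and 4.72 CPM in the IP libraries. On the log2 scale the change was 0.41 (SE 0.32), and no alternative analysis called it. *Ercc4* was at 3.09 and 3.37 CPM in the input and 5.01 and 3.32 CPM in the IP libraries, a log2 fold change of 0.38 (SE 0.36). In *Ddb2* and *Ercc2* the IP libraries lay on either side of the input libraries. *Ddb2* was at 10.3 and 10.8 CPM in the input and 8.97 and 13.7 CPM in the IP libraries, and *Ercc2* at 7.80 and 6.97 CPM in the input and 10.05 and 5.13 CPM in the IP libraries. Their log2 fold changes of 0.094 (SE 0.30) and 0.051 (SE 0.35) both changed sign when a single library was left out.

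*Ercc1* and *Xpa* were lower on average in the IP. *Ercc1* was at 90.7 and 108 CPM in the input and 69.4 and 97.0 CPM in the IP libraries, with overlap, a log2 fold change of -0.26 (SE 0.24). *Xpa* was at 18.3 and 15.4 CPM in the input and 8.85 and 8.34 CPM in the IP libraries, a log2 fold change of -0.97 (SE 0.27). The IP libraries of *Xpa* were close to each other and below both input libraries, yet the call was lost whichever library was left out and with library sizes alone as normalization.

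The values of the 10 genes in this comparison went with the length of their transcripts. Across the 10, the log2 fold change of IP over input had a Spearman correlation of 0.76 with the length of the principal transcript, from *Xpa* with 955 bases to *Ercc6* with 8423 bases. Over the 11441 genes tested that had an annotated length, this correlation was 0.33. These are descriptions across genes of the same libraries, and genes are not independent replicates. Of genes under 1000 bases, such as *Xpa*, 5.66% were called lower and 2.24% higher in IP, with a median log2 fold change of -0.16. Of genes from 1000 to under 2000 bases, which hold *Ddb2* and *Ercc1*, 13.2% were called lower and 2.31% higher, with a median of -0.28. Of genes from 2000 to under 3000 bases, 9.35% were called lower and 6.69% higher, with a median of 0.026, and *Ercc3*, the gene of the 10 in this range, was well above that median at 0.98. Of genes from 3000 to under 4000 bases, which hold *Xpc*, *Ercc2*, *Ercc4* and *Ercc5*, 6.19% were called lower and 9.31% higher, with a median of 0.27. Of genes from 4000 to under 5000 bases, such as *Ddb1*, 6.09% were called lower and 11.7% higher, with a median of 0.30. Of genes of 5000 bases or more, such as *Ercc6*, 3.63% were called lower and 13.7% higher, with a median of 0.38. The letters GGAC, the core of the sequence that METTL3 methylates most often, occurred 4 to 28 times in the principal transcripts of the 10 genes. Their number had a Spearman correlation with the log2 fold change of 0.49 across the 10 and of 0.17 over all genes with a length, whereas per kilobase, with length divided out, it was -0.30 and -0.19. For the length of the 3′ UTR this correlation was 0.55 across the 10 and 0.23 over all genes, and for the GC content of the transcript -0.53 and -0.33.

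**Figure D5:**
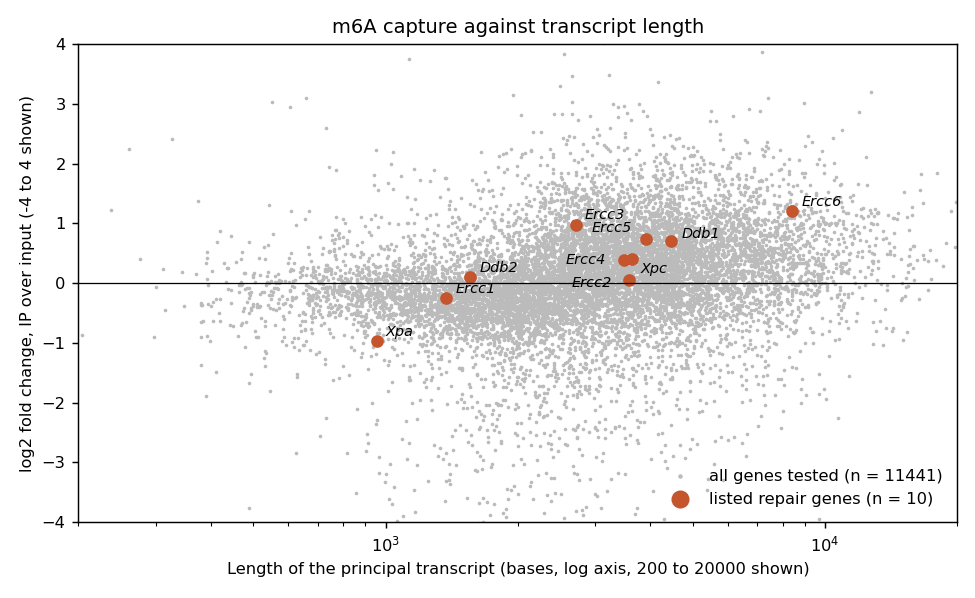
Log2 fold change of m6A IP over input in control CFU-E (vertical axis) against the length of the principal transcript in bases (horizontal log axis). Grey points are the 11441 genes with an annotated length and orange points the 10 repair genes, which run from Xpa at 955 bases and -0.97 to Ercc6 at 8423 bases and 1.20.

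Among the 41 other genes of the pathway, 4 were called higher in IP (7.90% of all genes) and 2 lower (7.86% of all genes). Their median log2 fold change was 0.085. *Uvssa*, which recruits TFIIH to a stalled polymerase, had the largest value of the 51 genes. It was at 14.6 and 19.8 CPM in the input and 94.5 and 74.2 CPM in the IP libraries, a log2 fold change of 2.29 ± 0.26 (SE, from edgeR with Benjamini-Hochberg adjustment, adjusted p = 0.00027). The call of *Uvssa* held whichever library was left out and under every other alternative run. *Rpa3*, of the protein that coats single strands, was higher in IP by 1.21 on the log2 scale and *Gtf2h3* of TFIIH by 1.04 (edgeR, adjusted p = 0.025 and 0.012). The call of *Rpa3* was lost without input replicate 1 or IP replicate 2, and that of *Gtf2h3* without input replicate 1 or IP replicate 1. *Mnat1*, also lower in the RNA-seq comparison, had a log2 fold change of -0.91 and *Pole4* one of -0.91 (edgeR, adjusted p = 0.043 and 0.027). Both calls were lost without input replicate 1, input replicate 2 or IP replicate 1 and with upper-quartile normalization, and that of *Mnat1* also with library sizes alone.

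The other partners were not called. The log2 fold change of IP over input was -0.75 for *Rad23b* (edgeR, adjusted p = 0.097), 0.18 for *Cetn2*, 0.64 for *Cul4a*, 0.84 for *Cul4b* and -0.35 for *Ercc8*. In the other pathways, 2 of 18 base excision repair genes were called higher and 2 lower, with a median of 0.14. *Tdg* at 1.34 and *Apex1* at -0.88 had the largest changes among those called. Of the exonic bases of *Apex1*, 61.7% overlap *Pip4p1* on the opposite strand. Of 8 mismatch repair genes 7 were above 0 (53.2% of all genes) and 1 was called, *Msh6* at 1.24, with a median of 0.66. Of 10 end-joining genes *Poll* was called higher at 0.79 and *Paxx* lower at -0.93, with a median of 0.30. These calls in other pathways were lost without input replicate 1, input replicate 2 or IP replicate 1, except that of *Msh6* without IP replicate 1.

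Setting both comparisons side by side, *Xpc* and *Ddb1*, the genes called lower in the Kit-lo libraries, had log2 fold changes of IP over input of 0.41 and 0.70 in control CFU-E and were not called there. *Ercc6* and *Ercc3*, with the highest IP values of the 10, had RNA-seq log2 fold changes of 0.28 and -0.28. *Uvssa*, with the largest IP value of the 51, had an RNA-seq log2 fold change of 0.16 and was not called (edgeR, adjusted p = 0.66).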

How the data were processed

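Reads of both kinds were trimmed by the authors with fastp 0.23.4 and assigned to transcripts with Kallisto 0.48.0. After summing to genes in tximport, they deposited estimated counts as whole numbers, without normalization and with 1 column per library. The paper names mm10 (GRCm38), and the submitters' processing notes name GRCm39 as well. Smart-seq2 was used for RNA-seq and SLIM-seq for m6A, whose primer holds a molecular identifier. The use of that identifier and of strand in the counting is not given in the sources used here. Counting error alone understates the error between libraries, whose biological coefficients of variation were 19.1% (RNA-seq) and 21.9% (m6A). The 6 ProE samples were not analysed here.

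Tests were run with edgeR 4.0.16 under R 4.3.3 (TMM, filterByExpr, glmQLFit and glmQLFTest), with 1 fit over the whole of each table and no covariate, and the SE was taken as the log2 value over the root of its F statistic. CPM used TMM library sizes. Alternatives were DESeq2 1.42.0, other normalizations and filters, a replicate block and leaving out each library. Biological coefficients of variation were 19.1% (RNA-seq) and 21.9% (m6A), identical pairs of libraries numbered 0, and the test was first tested on simulated data. Lengths, strands and overlaps came from GENCODE vM21 of GRCm38, which matched 99.9% of the genes of both tables by symbol.

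The 10 genes, the lists of other genes and the tests were chosen with earlier results of these data known. The text names all 10, the called genes among the other genes of the pathway (in the IP the 6 of largest change), the binding partners of the 10, at most 2 called genes of largest change for each of the other pathways, and *Mettl3* and *Kit* as checks of the labels. The values of 1 other gene of the pathway that this rule names are not reported here.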

Additional observations from a re-analysis of the deposited data

How the results depend on the processing

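Of the 10 genes, *Xpc* was called lower in the RNA-seq comparison under every alternative run, with log2 fold changes from -1.37 to -0.92, and those of *Ddb1* ran from -0.66 to -0.57. Signs turned for *Ddb2* (-0.24 without Kit-lo replicate 2) and *Xpa* (-0.15 without Kit-lo replicate 3, the range of fits without 1 library being -0.24 to 0.27 and -0.15 to 0.62) in the RNA-seq comparison. In the IP they turned for *Ddb2* (-0.24 without IP replicate 2) and for *Ercc2* (-0.0010 with DESeq2, -0.016 with the replicate block, -0.035 without input replicate 2 and -0.55 without IP replicate 1). Without 1 library they ran from -0.24 to 0.36 and from -0.55 to 0.44.

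In the RNA-seq comparison, dropping the fold threshold raised the calls to 2024 lower over all genes, to 2 higher among the 10, to 6 higher and 10 lower among the 41 other genes of the pathway and to 5 higher and 6 lower among the 36 genes of other repair pathways. Library sizes alone left 1 called lower among the 10, 1 among the 41 and 1 among the 36. Leaving out 1 library gave 1 to 2 called lower among the 10, 0 to 1 higher and 1 to 4 lower among the 41, and 2 to 4 higher and 1 to 3 lower among the 36.

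In the m6A comparison, DESeq2 called 1 of the 10 higher and 4 of the 41 lower, and DESeq2's size factors in edgeR gave 2 higher among the 36. Upper-quartile normalization gave 1451 higher over all genes, 3 higher among the 10, and 0 lower among the 41 and 0 among the 36. Library sizes alone gave 0 lower among the 10, 1 among the 41 and 1 among the 36, and the stricter filter 2 higher among the 10. Where no count over all genes is given, that of the 10 was not set against the share of all genes. Leaving out 1 library gave 164 to 1358 higher and 427 to 968 lower over all genes, 0 to 2 higher and 0 lower among the 10, 2 to 6 higher and 0 to 2 lower among the 41, and 0 to 9 higher and 0 to 3 lower among the 36. In these fits the lone library of a group is assumed to vary like the other group. The causes were not tested.

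Same-numbered libraries deviated from their group means with correlations of 0.034, -0.017 and -0.072 (RNA-seq) and 0.21 (m6A), and the sources used here do not say whether same-numbered libraries came from the same cells or RNA, so the pairing is not established. With the replicate block, 1 of the 36 genes was called lower in the RNA-seq comparison, and at any fold the adjusted p-value was under 0.05 for 1 of the 10 with a higher level, *Ercc4*. No other count of calls in that comparison moved by over 1.5 times. In the m6A comparison the block gave 1783 higher and 1755 lower over all genes, 3 higher among the 10, 9 higher and 7 lower among the 41 and 8 higher among the 36. Counts of 8 to 37 for *Xpa* in the RNA-seq and 2 libraries a side in the IP limit what could be detected.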

Other observations

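The CPM values of the 10 genes in control CFU-E differed between the assays, the RNA-seq and the m6A input. These were separate libraries with separate normalization, so no test was run. The RNA-seq is full-length, so its CPM rises with transcript length, while the input counts tags near the 3′ end. The gaps and correlations below therefore compare unlike measures and are not read as differences in expression. *Ddb1* was at 1444 CPM in the RNA-seq and 29.8 CPM in the input, 48.5-fold higher in the former, and its ratio of input to RNA-seq was above that of only 0.056% of the genes tested in both. *Ercc6* was 22.3-fold, *Ercc4* 17.2-fold, *Ercc5* 12.4-fold, *Xpc* 8.40-fold, *Ercc2* 6.05-fold, *Ercc3* 3.88-fold and *Ddb2* 1.31-fold higher in the RNA-seq. *Ercc1* was 7.41-fold and *Xpa* 14.3-fold higher in the input. The log2 ratio of input to RNA-seq had a Spearman correlation of -0.92 with transcript length across the 10 genes and of -0.56 across 10768 genes tested in both, given as descriptions. The RNA-seq log2 fold change of Kit-lo over control had one of 0.10 with transcript length across the 10 and of 0.025 over 11973 genes.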
